A study of Mus musculus with 16 samples.

Results

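The CXC and CX3C chemokines examined here were Cxcl1, Cxcl5, Cxcl12, Cxcl14, Cxcl16 and Cx3cl1, chosen by gene name, and they made up 6 of the 41325 genes counted. The cells were immortalized preadipocytes of wild-type C57Bl6/J mice, a cultured line of precursors that turn into adipocytes, and the labels do not say which gene immortalized them or whether the line is a clone. Polyadenylated RNA was counted per gene in 16 libraries, 4 in each of 4 groups: cells that received 16 h of interleukin-13 (IL-13) before they were taken at day 0 of differentiation, untreated cells at day 0, cells with the same IL-13 pre-treatment at day 6, and untreated cells at day 6. IL-13 is a type 2 immune cytokine whose receptor activates the transcription factor Stat6. Whether the 4 libraries of a group are separate cultures is not stated, and the p-values below therefore reflect library-to-library spread that may be technical.

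Chemokines are small secreted proteins that guide leukocytes through receptors coupled to G proteins, and they are held on cell surfaces and matrix by heparan sulfate. The CXC class has a single residue between its first pair of cysteines, while Cx3cl1 (fractalkine) has 3. Cxcl12 is made constitutively by stromal cells and acts through Cxcr4, with Ackr3 as a scavenging receptor. Cxcl16 and Cx3cl1 are made as membrane-bound proteins that proteases can shed. Cxcl1 and Cxcl5 carry a Glu-Leu-Arg motif before the cysteines and attract neutrophils through Cxcr2, and Cxcl14 is a chemokine of epithelia that is also secreted by brown fat.

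The coding stretches around those cysteines are shown because they define the class of each gene. They were read from GENCODE transcripts of build GRCm38, with the cysteine codons in capitals and positions counted from the first base of the coding sequence.
Cxcl1: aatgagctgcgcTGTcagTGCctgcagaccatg
Cxcl5: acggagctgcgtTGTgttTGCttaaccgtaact
Cxcl12: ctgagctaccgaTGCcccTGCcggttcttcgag
Cxcl14: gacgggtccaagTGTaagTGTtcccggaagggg
Cxcl16: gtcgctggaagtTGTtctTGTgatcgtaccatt
Cx3cl1: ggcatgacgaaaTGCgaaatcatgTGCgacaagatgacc
These stretches spanned coding bases 85 to 117 in Cxcl1, 145 to 177 in Cxcl5, 76 to 108 in Cxcl12, 61 to 93 in Cxcl14, 91 to 123 in Cxcl16 and 82 to 120 in Cx3cl1. The Glu-Leu-Arg codons stood directly before the first cysteine in Cxcl1 and Cxcl5 and in no other of the 6. The coding sequences ran from 96 residues in Cxcl1 to 246 in Cxcl16 and 395 in Cx3cl1.

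All 6 genes were annotated as protein-coding. Cxcl1 (ENSMUSG00000029380, chr5:90891241-90893115, plus strand) and Cxcl5 (ENSMUSG00000029371, chr5:90759360-90761624, plus strand) lay on the same chromosome. Cxcl12 (ENSMUSG00000061353) lay at chr6:117168535-117181367 on the plus strand, and Cxcl14 (ENSMUSG00000021508) at chr13:56288643-56296551 on the minus strand. Cxcl16 (ENSMUSG00000018920) lay at chr11:70453983-70459984 on the minus strand, and Cx3cl1 (ENSMUSG00000031778) at chr8:94772009-94782427 on the plus strand. In Cxcl16, 18.3% of the exon bases overlapped Zmynd15 on the opposite strand, and since the sources do not say whether counting used strand, its counts are uncertain to that extent. The other 5 genes overlapped no gene in their exons.

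Library totals lay between 15253031 and 18112087 counts, and 15447 to 16201 genes had at least 1 count. Adipocyte markers (8 genes, Adipoq and Fabp4 among them) summed to 20648 to 22078 TPM (counts scaled to transcript length and library depth) in IL-13 libraries at day 6, against 266 to 288 TPM at day 0. In untreated libraries they summed to 20560 to 21810 TPM at day 6, against 297 to 333 TPM at day 0. Preadipocyte markers (7 genes) summed to 142 to 194 TPM at day 6, against 658 to 736 TPM at day 0. Most of that fall lay in Pdgfrb and Ly6a. Zfp423 went the other way, with a mean of 12.9 TPM at day 6, against 2.68 TPM at day 0 in IL-13 cells. In untreated cells it averaged 13.8 TPM at day 6, against 3.49 TPM at day 0. Macrophage markers (10 genes) reached at most 20.1 TPM in any library, with Adgre1 and Tyrobp at 0 counts in all 16, endothelial markers (7 genes) at most 2.16 TPM and neutrophil markers (6 genes) at most 3.48 TPM. Of 4 macrophage markers tested at day 0, 1 was higher and 1 lower after IL-13. There Csf1r had 291 counts in IL-13 cells and 115 in untreated cells, and Lyz2 88 in IL-13 cells and 156 in untreated cells. Among neutrophil markers, S100a8 had 23 counts in IL-13 cells and 16 in untreated cells at day 6, against 0 and 2 at day 0. Mpo and Elane also had more counts at day 6, while S100a9 and Ly6g had 0 in all groups. Nuclear-retained RNAs and splicing-factor transcripts were lower after IL-13 and in part higher at day 6, and their mean log2 level is given below with both comparisons.

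Cxcl12 dominated the group. At day 0 it averaged 1614 ± 100 TPM in IL-13 cells and 2177 ± 152 TPM in untreated cells (SD, n = 4 each), which placed it 81st of 41325 genes by mean TPM after IL-13 and 56th in untreated cells. It held 99.2% of the 6 genes' summed TPM in either day 0 group and took up 0.388% to 0.543% of all counts in a day 0 library. At day 6 it averaged 118 ± 10.4 TPM in IL-13 cells and 127 ± 12.2 TPM in untreated cells, and its share of the summed TPM was 82.1% in IL-13 cells and 81.1% in untreated cells. Cxcl16 held most of the remainder at day 6, with 13.1% in IL-13 cells and 12% in untreated cells. The summed level of the 6 genes was 143 TPM in IL-13 cells and 157 TPM in untreated cells at day 6, against 1627 TPM in IL-13 cells and 2194 TPM in untreated cells at day 0.

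The order of the levels below Cxcl12 differed between the days. In IL-13 cells at day 0, Cx3cl1 at 9.50 ± 0.41 TPM stood above Cxcl16 at 2.86 ± 0.87 TPM and Cxcl1 at 0.207 ± 0.142 TPM, with no overlap between their libraries. The order was the same in untreated cells at day 0, where Cx3cl1 averaged 12.7 ± 1.6 TPM, Cxcl16 2.86 ± 0.11 TPM and Cxcl1 1.26 ± 0.32 TPM, again without overlap. At day 6 Cx3cl1 was the lowest of the 4 detected genes. In IL-13 cells at day 6, Cxcl16 averaged 18.8 ± 1.9 TPM, Cxcl1 4.32 ± 2.10 TPM and Cx3cl1 2.54 ± 0.49 TPM. There the libraries of Cxcl1 (2.55 to 7.25 TPM) and Cx3cl1 (1.96 to 3.15 TPM) overlapped, so that pair was not separated beyond its spread. In untreated cells at day 6, Cxcl16 averaged 18.9 ± 0.9 TPM, Cxcl1 8.44 ± 2.50 TPM and Cx3cl1 2.32 ± 0.16 TPM, and no libraries overlapped.

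**Figure D1:**
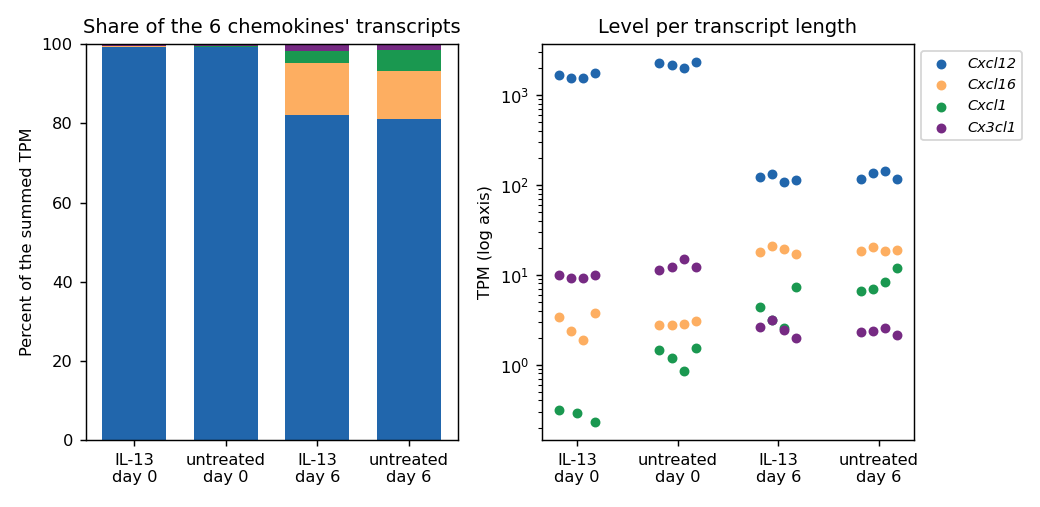
Left, percent of the summed TPM of the 6 chemokines held by each gene (y axis, 0 to 100%) in the 4 groups, from group means over 4 libraries. Right, TPM of each library on a log axis; the Cxcl1 value of 0 in 1 IL-13 library at day 0 cannot be drawn there, and Cxcl12 stands highest throughout while Cx3cl1 and Cxcl16 change places between day 0 and day 6.

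Cxcl14 had 0 counts in all 16 libraries, out of 265792364 counts in total, which allows a level of up to 0.0113 CPM (counts scaled to library size) from counting error alone. Cxcl5 had 2 counts in all, 1 each in untreated libraries 2 and 4 of day 0, and 0 in the other 14 libraries. Both genes stayed below edgeR's expression filter in every comparison and were not tested. Of the 6 genes, 3 passed the filter in the comparison of IL-13 with untreated cells at day 0, and 4 passed it in each of the other comparisons.

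At day 0, IL-13 pre-treatment went with a small fall of Cxcl12 and a larger fall of the low-abundance Cxcl1. Levels from here on are CPM on library sizes scaled by the trimmed mean of M values (TMM) and compare a gene with itself between groups. Of the 3 genes tested, 1 was lower (Cxcl12), none was higher, and Cxcl16 and Cx3cl1 did not pass at an adjusted p under 0.05, beside 47.9% of 12274 genes called in that comparison. The 3 log2 fold changes had a median of -0.23, against -0.01 over all genes tested. A single call among 3 is near that background.

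Cxcl12 stood at 4129, 4011, 4160 and 4270 CPM in IL-13 libraries, against 4815, 4911, 4656 and 4891 CPM in untreated libraries of day 0. The groups did not overlap, and every IL-13 library was lower. The log2 fold change was -0.23 with a standard error (SE) of 0.07 (edgeR quasi-likelihood test, adjusted p = 0.0102), a level 1.17-fold lower after IL-13. In bulk RNA, fewer cells of a type and less RNA per cell cannot be told apart. The mean log2 CPM of 22 nuclear-retained and splicing-factor transcripts was 5.36 to 5.55 in IL-13 libraries, against 5.76 to 6.50 in untreated libraries of day 0, and 20 of the 22 were lower after IL-13. These ranges did not overlap, so a fit with that mean as a covariate cannot separate IL-13 from this RNA level for any gene. With that mean as a covariate the log2 fold change of Cxcl12 was -0.16 (edgeR, adjusted p = 0.467), without untreated libraries 1 and 4, the pair with most of these RNAs, it was -0.21 (edgeR, adjusted p = 0.055), and with scaling to library totals only it was -0.35 (edgeR, adjusted p = 0.000272).

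Cxcl1 had 3, 0, 3 and 2 counts in IL-13 libraries, against 14, 10, 8 and 14 counts in untreated libraries of day 0. All IL-13 libraries were below all untreated ones. The mean level was 0.121 ± 0.084 CPM in IL-13 cells and 0.636 ± 0.130 CPM in untreated cells (SD, n = 4 each), a ratio of 0.191. The gene did not pass the filter in the 8 libraries of day 0, so the level was compared by an exact two-sided permutation test, which gave an unadjusted p of 0.0286, the smallest that 70 arrangements of 4 against 4 allow. With no filter the log2 fold change was -2.32 ± 0.53 (SE; edgeR, adjusted p = 0.000504), and in the fit of all 16 libraries, where the gene passed, it was -2.31 ± 0.64 (SE; edgeR, adjusted p = 0.00708). With no filter and the nuclear RNA level as a covariate, a fit with the limit given for Cxcl12, it was -1.67 (edgeR, adjusted p = 0.506).

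Cx3cl1 stood at 11.9, 11.5, 11.9 and 11.6 CPM in IL-13 libraries, against 11.7, 13.4, 17.1 and 12.4 CPM in untreated libraries of day 0. The groups overlapped, and the widest spread came from untreated library 3. The log2 fold change was -0.23 ± 0.11 (SE; edgeR, adjusted p = 0.0854), with a 95% interval of -0.458 to -0.00499. It passed at -0.35 with scaling to library totals only (edgeR, adjusted p = 0.0111), at -0.70 with the nuclear RNA covariate (edgeR, adjusted p = 0.00443), at -0.38 without untreated libraries 1 and 4 (edgeR, adjusted p = 0.019) and at -0.29 without untreated library 1 alone (edgeR, adjusted p = 0.0403). Without untreated library 3 the log2 fold change was -0.10 and did not pass, and DESeq2 did not call the gene either (log2 -0.22, adjusted p = 0.174).

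Cxcl16 stood at 3.18, 2.28, 1.90 and 3.39 CPM in IL-13 libraries, against 2.20, 2.34, 2.48 and 2.36 CPM in untreated libraries of day 0. IL-13 libraries lay on either side of the untreated ones. The log2 fold change was 0.18 ± 0.19 (SE; edgeR, adjusted p = 0.458), and its 95% interval of -0.23 to 0.59 includes a rise or a fall of modest size.

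**Figure D2:**
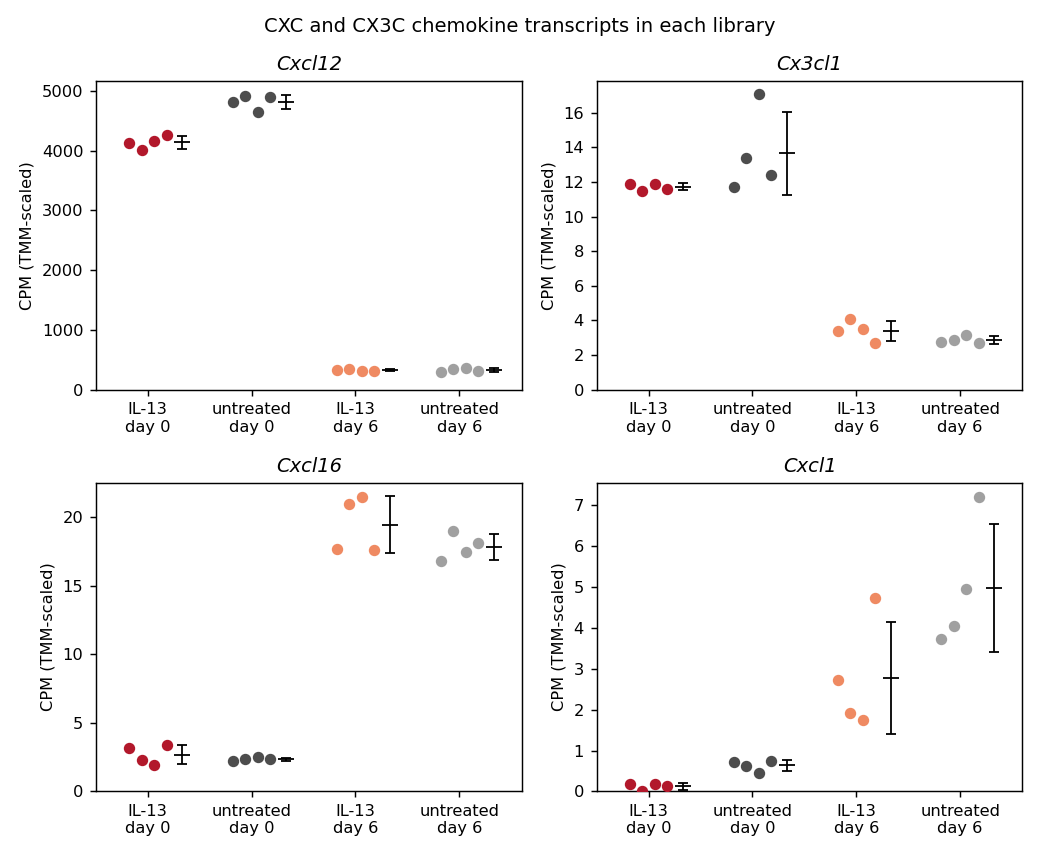
CPM on TMM-scaled library sizes (y axes from 0) of Cxcl12, Cx3cl1, Cxcl16 and Cxcl1 in each of the 16 libraries, with the mean and SD of 4 libraries at the right of each group. Cxcl12 and Cx3cl1 sit far lower at day 6 and Cxcl16 and Cxcl1 higher, with or without IL-13, and the IL-13 libraries of day 0 lie below the untreated ones in Cxcl12 and Cxcl1.

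At day 6, none of the 4 genes tested passed in the comparison of IL-13 with untreated cells, beside 6.55% of 12352 genes called. Of the 4, 1 (Cxcl1) had an unadjusted edgeR p under 0.05, and DESeq2 called 0 of the 4. The 4 log2 fold changes had a median of 0.08, against 0.01 over all genes tested.

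Cxcl1 stood at 2.72, 1.92, 1.74 and 4.72 CPM in IL-13 libraries, against 3.73, 4.04, 4.95 and 7.19 CPM in untreated libraries of day 6. The groups overlapped only through IL-13 library 4, which was above untreated libraries 1 and 2. The log2 fold change was -0.82 ± 0.31 (SE; edgeR, adjusted p = 0.119), with a 95% interval of -1.50 to -0.14. Leaving out single libraries gave -1.21 to -0.584, with a call only without IL-13 library 4 (log2 -1.21; edgeR, adjusted p = 0.0389). The nuclear-retained transcripts were lower here too, at a mean log2 CPM of 5.59 to 6.22 in IL-13 libraries, against 6.46 to 7.01 in untreated libraries, and with them as a covariate the log2 fold change of Cxcl1 was -0.84 (edgeR, adjusted p = 0.73). Here too the ranges did not overlap, so that fit cannot separate IL-13 from this RNA level. It called 0 of 12352 genes, and its lack of a call for Cxcl1 is not informative.

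Cxcl12 stood at 326, 354, 317 and 321 CPM in IL-13 libraries, against 292, 342, 367 and 305 CPM in untreated libraries of day 6. Its log2 fold change was 0.03 ± 0.08 (SE; edgeR, adjusted p = 0.852), with a 95% interval of -0.14 to 0.19. Cxcl16 stood at 17.7, 21.0, 21.5 and 17.6 CPM in IL-13 libraries, against 16.8, 19.0, 17.5 and 18.1 CPM in untreated ones. The groups of either gene overlapped. Cxcl16 had a log2 fold change of 0.14 ± 0.09 (SE; edgeR, adjusted p = 0.356; 95% interval -0.06 to 0.33). Cx3cl1 stood at 3.40, 4.09, 3.48 and 2.68 CPM in IL-13 libraries, against 2.77, 2.85, 3.17 and 2.67 CPM in untreated ones. It had a log2 fold change of 0.27 ± 0.16 (SE; edgeR, adjusted p = 0.312; 95% interval -0.09 to 0.62), with IL-13 library 4 among the untreated values.

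Whether IL-13 pre-treatment went with another difference at day 6 than at day 0 was tested directly, as the effect at day 6 minus that at day 0. Since IL-13 was a pre-treatment, time since exposure and state of the cells cannot be told apart here. The difference was called for 8.06% of 13157 genes. It was called for none of the 4 genes tested, although 2 of them, Cxcl12 and Cx3cl1, had an unadjusted edgeR p under 0.05, and DESeq2 called 1 (Cxcl12, log2 difference 0.27, adjusted p = 0.0334). In edgeR the log2 difference was 0.23 ± 0.10 (SE) for Cxcl12 (adjusted p = 0.175). Leaving out single libraries gave 0.226 to 0.346, with a call only without untreated library 3 of day 6 (0.35; edgeR, adjusted p = 0.0318). The difference was 0.47 ± 0.19 for Cx3cl1 (SE; edgeR, adjusted p = 0.163) and 1.48 ± 0.71 for Cxcl1 (SE; edgeR, adjusted p = 0.249). For Cxcl16 it was -0.07 ± 0.20 (SE; edgeR, adjusted p = 0.886), so that an effect of the pre-treatment that differs between the days was not shown for any of these genes by edgeR.

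From day 0 to day 6 the 4 genes split into a pair that fell and a pair that rose, and they did so in either treatment arm. Cxcl12 and Cx3cl1 were lower at day 6, and Cxcl16 and Cxcl1 were higher. All 4 genes passed in IL-13 cells, beside 80.8% of 13157 genes called, and all 4 passed in untreated cells, beside 80.5% of 13157. With so many genes called, a count of 4 of 4 says little by itself. The median log2 fold change of these 4, which moved in opposite directions, was 0.54 in IL-13 cells and 0.34 in untreated cells, against 0.0012 in IL-13 cells and 0.04 in untreated cells over all genes tested.

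Cxcl12 averaged 330 ± 16.8 CPM at day 6, against 4142 ± 106 CPM at day 0 in IL-13 cells (SD, n = 4 each). In untreated cells it averaged 326 ± 34 CPM at day 6, against 4818 ± 116 CPM at day 0. The highest library of day 6, at 367 CPM, was far below the lowest of day 0, at 4011 CPM. The fall was 12.6-fold in IL-13 cells (log2 -3.65 ± 0.08, SE; edgeR, adjusted p = 4.79e-20) and 14.8-fold in untreated cells (log2 -3.88 ± 0.08, SE; edgeR, adjusted p = 2.02e-20).

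Cx3cl1 averaged 3.41 ± 0.58 CPM at day 6, against 11.7 ± 0.2 CPM at day 0 in IL-13 cells. In untreated cells it averaged 2.86 ± 0.21 CPM at day 6, against 13.7 ± 2.4 CPM at day 0. No library of day 6 reached any of day 0. The fall was 3.44-fold in IL-13 cells (log2 -1.78 ± 0.13, SE; edgeR, adjusted p = 9.25e-11) and 4.76-fold in untreated cells (log2 -2.25 ± 0.14, SE; edgeR, adjusted p = 2.13e-12).

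Cxcl16, which binds Cxcr6 and as a membrane protein also takes up oxidized lipoprotein, averaged 19.5 ± 2.07 CPM at day 6, against 2.69 ± 0.71 CPM at day 0 in IL-13 cells. In untreated cells it averaged 17.9 ± 0.9 CPM at day 6, against 2.34 ± 0.11 CPM at day 0. Every library of day 6 was above every library of day 0. The rise was 7.24-fold in IL-13 cells (log2 2.86 ± 0.13, SE; edgeR, adjusted p = 2.8e-14) and 7.61-fold in untreated cells (log2 2.93 ± 0.13, SE; edgeR, adjusted p = 2.14e-14). The strand of counting limits this gene as given above.

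Cxcl1 averaged 2.78 ± 1.37 CPM at day 6, against 0.121 ± 0.084 CPM at day 0 in IL-13 cells. In untreated cells it averaged 4.98 ± 1.56 CPM at day 6, against 0.636 ± 0.130 CPM at day 0. It rose 21.5-fold in IL-13 cells (log2 4.43 ± 0.50, SE; edgeR, adjusted p = 8.25e-08), where the day 0 group held only 8 counts in 4 libraries, and 7.73-fold in untreated cells (log2 2.95 ± 0.34, SE; edgeR, adjusted p = 1.04e-07). Cxcl1 did not pass the filter at day 0 and entered this comparison through its day 6 libraries, a selection that favours a rise. The nuclear-retained transcripts had a mean log2 CPM of 5.59 to 6.22 at day 6, against 5.36 to 5.55 at day 0 in IL-13 cells (11 of 22 higher and 4 lower), and of 6.46 to 7.01 at day 6, against 5.76 to 6.50 at day 0 in untreated cells (14 higher, 0 lower). With them as a covariate all 4 chemokines still passed in both arms, at log2 fold changes of -3.62 in IL-13 cells and -3.85 in untreated cells for Cxcl12. For Cx3cl1 they were -1.54 in IL-13 cells and -1.93 in untreated cells, for Cxcl16 2.94 in IL-13 cells and 3.05 in untreated cells, and for Cxcl1 4.33 in IL-13 cells and 2.84 in untreated cells. Day 0 and day 6 were deposited in separate tables, so that a difference in how the days were run cannot be told apart from differentiation.

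**Figure D3:**
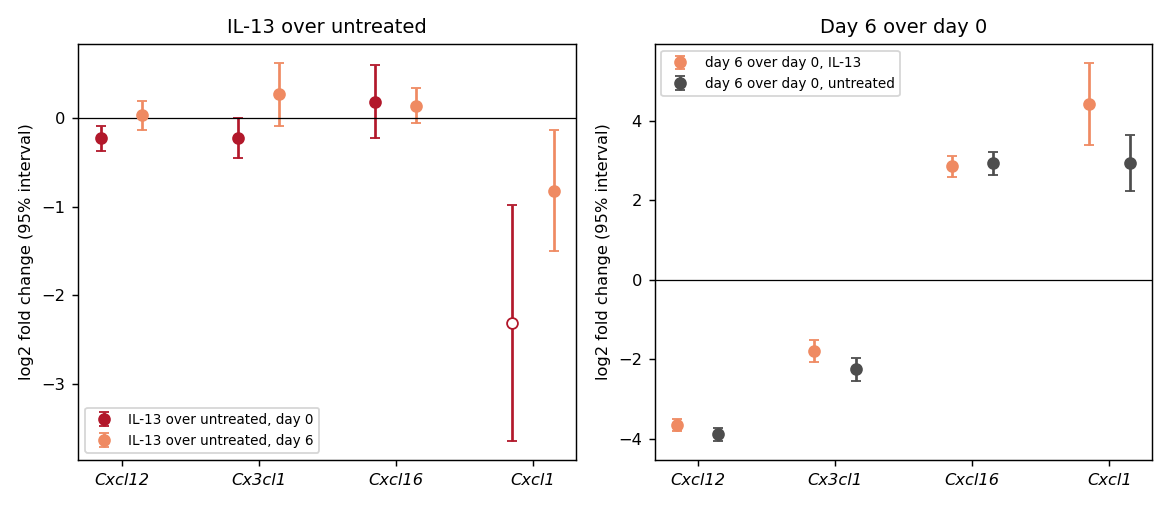
Log2 fold changes with 95% intervals (y axis) of the 4 detected genes for IL-13 over untreated at day 0 and day 6 (left) and for day 6 over day 0 in IL-13 and untreated cells (right). The open point is Cxcl1 at day 0 from the fit of all 16 libraries, since the gene did not pass the filter in the 8 libraries of that day; the day differences reach -3.88 and 4.43, while the IL-13 differences of the other 3 genes lie between -0.23 and 0.27.

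The promoter of Cxcl1 is shown because NF-kB controls this gene in many cell types and the data below include a cofactor of that pathway. The 250 bases before its RefSeq start site (chr5:90890995-90891244, plus strand, GRCm38.p6) held 2 overlapping matches of the NF-kB consensus, 71 to 61 bases before the start site, which are in capitals.
Cxcl1 promoter: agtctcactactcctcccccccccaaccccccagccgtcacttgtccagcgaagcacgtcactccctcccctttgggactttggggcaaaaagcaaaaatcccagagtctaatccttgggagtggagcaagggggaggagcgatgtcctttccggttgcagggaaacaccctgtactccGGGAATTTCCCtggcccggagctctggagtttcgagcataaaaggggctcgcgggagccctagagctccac
The consensus, searched on both strands, was present in 7.01% of 27025 promoter windows of that length. Of the 6 chemokines, 4 had a promoter entry, and Cxcl1 was the only one of those with a match. Of 10 other CXC ligands, 8 had an entry, and 3 (Cxcl2, Cxcl3 and Cxcl10) held a match. The Stat6 motif TTCNNNNGAA, searched on both strands, was in 0 of the 4 chemokine windows and in 5.86% of all windows. With only 4 windows, 0 matches is near that background. Whether NF-kB or Stat6 acts on these genes in these cells was not tested.

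Among 14 genes on the NF-kB route to Cxcl1, the low-abundance cofactor Nfkbiz fell after IL-13 at day 0 and rose between the days, as Cxcl1 did. It was 1 of 2 genes of the list lower after IL-13 at day 0, where 5 were higher. In each arm it was 1 of 6 that were higher at day 6. Whether Nfkbiz and Cxcl1 are linked in these cells was not tested. Nfkbiz encodes IkB-zeta, a nuclear protein needed for a subset of NF-kB targets. It stood at 0.659, 0.570, 0.356 and 0.320 CPM in IL-13 libraries, against 3.28, 2.46, 1.96 and 3.80 CPM in untreated libraries of day 0, with no overlap. The log2 fold change was -2.60 ± 0.30 (SE; edgeR, adjusted p = 6.55e-06), and -1.62 with the nuclear RNA covariate (edgeR, adjusted p = 0.0312). At day 6 it averaged 4.41 ± 2.01 CPM in IL-13 cells and 8.96 ± 1.50 CPM in untreated cells, a log2 fold change of -1.0 ± 0.28 (SE; edgeR, adjusted p = 0.0569). DESeq2 called it (adjusted p = 0.0106), while with the nuclear RNA covariate the sign turned, to 0.18 (edgeR, adjusted p = 0.919). From day 0 to day 6 Nfkbiz rose by 3.20 log2 units in IL-13 cells (edgeR, adjusted p = 6.21e-07) and by 1.63 in untreated cells (edgeR, adjusted p = 2.13e-05), where the nuclear RNA covariate brought it to 0.885. Its day 6 and IL-13-arm values are given because of its day 0 call, a choice made after they were seen.

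The rest of that list did not move together. Of 13 genes tested at day 0, 5 were higher and 2 lower after IL-13, beside 47.9% of 12274 genes called, a share near that of the list. The list median was 0.13 log2 units. The IL-17 receptor subunit Il17rc averaged 62.6 ± 7.84 CPM in IL-13 cells and 35.2 ± 4.52 CPM in untreated cells (log2 0.82 ± 0.10, SE; edgeR, adjusted p = 2.96e-05), and the NF-kB precursor Nfkb1 90.6 ± 4.92 CPM in IL-13 cells and 67.3 ± 3.39 CPM in untreated cells (log2 0.41 ± 0.06, SE; edgeR, adjusted p = 5.36e-05). Tnfrsf1a, the TNF receptor and the highest gene without a call, averaged 193 ± 7.71 CPM in IL-13 cells and 175 ± 10.9 CPM in untreated cells. At day 6, 1 of 14 was called, Tnfrsf1a at 0.22 log2 units (edgeR, adjusted p = 0.048), a call lost on leaving out any of 7 single libraries of the 8 (log2 0.18 to 0.24), with library totals only (log2 0.13; edgeR, adjusted p = 0.134) and with the nuclear RNA covariate (log2 0.00637; edgeR, adjusted p = 0.989). Over all genes, 6.55% of 12352 were called there, and the highest gene of the list without a call was the NF-kB subunit Rela. Between the days, 6 of 14 were higher and 5 lower at day 6 in each arm. Over all 13157 genes tested, 80.8% were called in IL-13 cells and 80.5% in untreated cells, so these counts are near the background. In untreated cells the smallest p-values belonged to Tnfaip3, an NF-kB inhibitor (log2 2.70), the IL-17 receptor Il17ra (log2 -0.94) and the transcription factor Cebpb (log2 1.90), with edgeR adjusted p of 1.63e-15, 1.84e-12 and 2.84e-10.

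On the receptor side, Ackr3, the scavenger of Cxcl12, was the only gene of 9 CXC and CX3C receptors with more than 3 counts in any group. It stood at 7.19, 5.95, 6.59 and 8.37 CPM in IL-13 libraries, against 0.922, 1.05, 1.67 and 1.45 CPM in untreated libraries of day 0. The groups were far apart, and the log2 fold change was 2.45 ± 0.18 (SE; edgeR, adjusted p = 6.34e-08), a 5.46-fold rise. At day 6 it averaged 3.23 ± 0.19 CPM in IL-13 cells and 3.40 ± 0.78 CPM in untreated cells (log2 -0.06, 95% interval -0.46 to 0.34; edgeR, adjusted p = 0.864). The difference in Ackr3 that went with IL-13 pre-treatment changed between the days by -2.53 ± 0.27 log2 units (SE; edgeR, adjusted p = 1.22e-06). From day 0 to day 6 it fell by 1.12 log2 units in IL-13 cells (edgeR, adjusted p = 4.28e-06) and rose by 1.41 in untreated cells (edgeR, adjusted p = 2.64e-06). Cxcr4, the signalling receptor of Cxcl12, had 1 or 2 counts per group of 4 libraries. Cxcr2, Cxcr6 and Cx3cr1, the receptors of Cxcl1, Cxcl16 and Cx3cl1, had 0 to 2 counts per group.

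Of 10 other CXC ligands, Cxcl9 and Cxcl10, interferon-induced ligands of Cxcr3, were the only ones that passed edgeR's filter at day 6, and they rose with Cxcl1 between the days. Cxcl9 and Cxcl1 did not pass the filter at day 0. They entered the comparison of the days through their day 6 libraries, a selection that favours a rise. Cxcl9 averaged 3.46 ± 0.43 CPM at day 6 in IL-13 cells, against 0.0448 ± 0.0573 CPM at day 0, and 2.35 ± 0.61 CPM at day 6 in untreated cells, against 0.0704 ± 0.0302 CPM at day 0. In IL-13 cells that was 223 counts at day 6, against 3 at day 0, a ratio of 72.9 on library totals with a 95% counting interval of 24.6 to 356. The log2 fold change was 6.01 ± 0.41 in IL-13 cells (SE; edgeR, adjusted p = 2.2e-11). In untreated cells it was 4.93 ± 0.40 (SE; edgeR, adjusted p = 3.28e-10), with 5 counts at day 0. Cxcl10 rose by 2.95 log2 units in IL-13 cells (edgeR, adjusted p = 6.25e-09) and by 2.83 in untreated cells (edgeR, adjusted p = 2.69e-09). Neither passed between IL-13 and untreated cells. Cxcl10 had log2 fold changes of -0.46 at day 0 (edgeR, adjusted p = 0.293) and -0.31 at day 6 (edgeR, adjusted p = 0.31), while Cxcl9 had 0.57 at day 6 (edgeR, adjusted p = 0.1; 95% interval 0.13 to 1.02). DESeq2 called 0 of the list in these comparisons, and 1 of 2 had an unadjusted edgeR p under 0.05 at day 6 and 0 of 1 at day 0. Cxcl2 and Cxcl3, neutrophil attractants like Cxcl1, had 16 counts each in IL-13 cells and 25 and 16 counts in untreated cells at day 6, against 0 counts each in IL-13 cells and 2 and 0 in untreated cells at day 0. They did not pass edgeR's filter, and DESeq2 called both higher at day 6 in each arm.

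**Figure D4:**
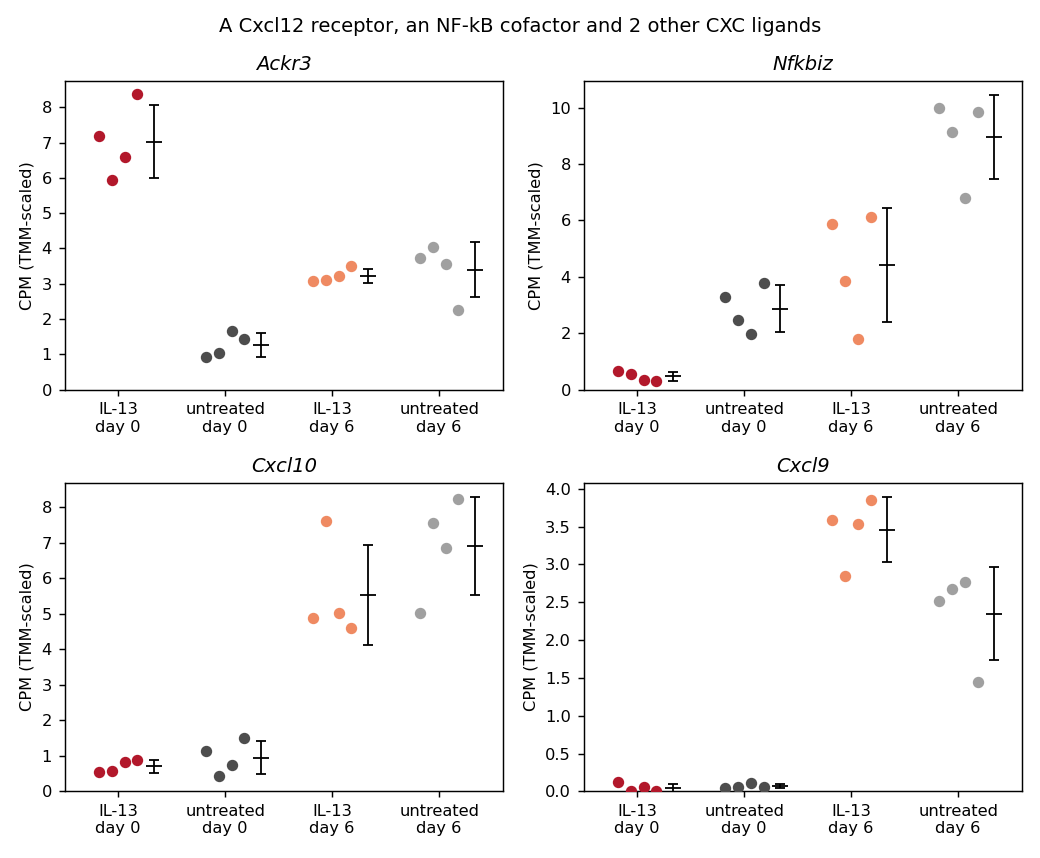
CPM on TMM-scaled library sizes (y axes from 0) of Ackr3, Nfkbiz, Cxcl10 and Cxcl9 in each of the 16 libraries, with the mean and SD of 4 libraries at the right of each group. At day 0 the IL-13 libraries of Ackr3 (5.95 to 8.37 CPM) lie above and those of Nfkbiz (0.320 to 0.659 CPM) below all untreated ones, and Cxcl9 and Cxcl10 are higher at day 6 in either arm.

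Of 8 proteases that cleave or shed chemokines, 5 were tested. At day 0, 1 was higher and 2 lower after IL-13, beside 47.9% of 12274 genes called. The sheddases of Cx3cl1 and Cxcl16 were called in opposite directions, with the rise of Adam10 depending on the scaling. Adam10 averaged 183 ± 15.1 CPM in IL-13 cells and 156 ± 8.43 CPM in untreated cells (log2 0.21 ± 0.06, SE; edgeR, adjusted p = 0.0132), and Adam17 74.7 ± 2.42 CPM in IL-13 cells and 88.7 ± 3.49 CPM in untreated cells (log2 -0.26 ± 0.05, SE; edgeR, adjusted p = 0.00065). The call of Adam10 was lost with library totals only (log2 0.0955; edgeR, adjusted p = 0.298) and without untreated libraries 1 and 4 (log2 0.22; edgeR, adjusted p = 0.0632). Mmp14, a membrane matrix protease that cleaves Cxcl12, was 0.14 log2 units lower (edgeR, adjusted p = 0.0498), a call lost in most alternatives. Cathepsin L (Ctsl), the highest without a call, averaged 248 ± 14.1 CPM in IL-13 cells and 268 ± 11.6 CPM in untreated cells. At day 6 none of the 5 passed (0 with an unadjusted edgeR p under 0.05, and 0 by DESeq2), beside 6.55% of 12352 genes called. Mmp14 was the highest of them. Between the days Adam17 was higher and 4 were lower at day 6 in each arm. Over all 13157 genes tested, 80.8% were called in IL-13 cells and 80.5% in untreated cells, so such a count says little by itself. Among the lower proteases in untreated cells were Mmp14 (log2 -2.71; edgeR, adjusted p = 4.15e-18), Ctsl (log2 -1.02; edgeR, adjusted p = 3.2e-12) and Adam10 (log2 -0.58; edgeR, adjusted p = 2.55e-07).

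Of 10 proteoglycans of the kind that hold chemokines at the cell surface or in matrix, 3 were higher and 3 lower after IL-13 at day 0. Over all 12274 genes tested, 47.9% were called there, and the list median was 0.10 log2 units. Decorin (Dcn) averaged 0.603 ± 0.258 CPM in IL-13 cells and 2.21 ± 0.33 CPM in untreated cells (log2 -1.88 ± 0.28, SE; edgeR, adjusted p = 8.8e-05). The glypican Gpc4 was 0.35 log2 units lower (edgeR, adjusted p = 0.000133) and Gpc1 0.55 log2 units higher (edgeR, adjusted p = 0.000318). Biglycan (Bgn), the highest without a call, averaged 5763 ± 459 CPM in IL-13 cells and 5398 ± 584 CPM in untreated cells. None of the 10 passed at day 6 (0 with an unadjusted edgeR p under 0.05, and 0 by DESeq2), beside 6.55% of 12352 genes called. Perlecan (Hspg2) was the highest. Between the days 7 were lower at day 6 in each arm, while 3 were higher in IL-13 cells and 2 in untreated cells. Over all 13157 genes tested, 80.8% were called in IL-13 cells and 80.5% in untreated cells. In untreated cells the smallest p-values belonged to Bgn (log2 -3.75; edgeR, adjusted p = 4.84e-19), the syndecan Sdc3 (log2 -6.49; edgeR, adjusted p = 7e-19) and Dcn (log2 5.66; edgeR, adjusted p = 2.09e-17). With the nuclear RNA covariate, Ackr3, Nfkbiz, Dcn, Gpc4 and Nfkb1 still passed at day 0, and 5 other genes did not. Of those, Gpc1 had a log2 fold change of 0.15 with it and 0.55 without, and Il17rc 0.46 with it and 0.82 without. Adam10 had 0.36 with it and 0.21 without, Adam17 -0.22 with it and -0.26 without, and Mmp14 -0.18 with it and -0.14 without, so that the loss of these 3 calls did not go with a much smaller difference.

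The genes whose profile over the 16 libraries was most like that of each chemokine were sought among 10733 tested genes, by the root-mean-square (RMS) difference of log2 CPM after centring each gene on its own mean. Cxcl12 was closest to Bgn (RMS difference 0.156), Fam171b (0.164) and the kinase Fam20a (0.167), against an RMS of 1.89 of Cxcl12 around its own mean. Bgn averaged 406 CPM in IL-13 cells and 400 CPM in untreated cells at day 6, against 5763 CPM in IL-13 cells and 5398 CPM in untreated cells at day 0, so it shared the fall between the days. Cx3cl1 was closest to Iqgap1, a scaffold of the actin cytoskeleton (0.113), Pea15a (0.127) and Ccdc80 (0.151), against 1.01 around its own mean. Cxcl16 was closest to Stard5 (0.158), the carbonyl reductase Cbr2 (0.169) and Sh3bgrl2 (0.178), against 1.44 around its own mean. Cxcl1 had the least close neighbours, Dusp6, a phosphatase of the ERK kinases (0.473), Ppp1r9a (0.509) and the calcium channel gene Cacna1g (0.527), against 1.77 around its own mean. Cxcl1 also had the fewest counts of these chemokines, and counting noise widens such differences. Dusp6 averaged 35.0 CPM in IL-13 cells and 37.9 CPM in untreated cells at day 6, against 2.73 CPM in IL-13 cells and 7.41 CPM in untreated cells at day 0. These likenesses rest mostly on the difference between the days, which all 16 libraries share.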

How the data were processed

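Stranded mRNA libraries of 2 µg total RNA each were made from 16 samples, per the labels' protocols. The authors deposited a table for each day. Per the file headers, these hold raw total counts per gene and library, which were tested here. RPKM and TPM values were also deposited by the authors, beside a CPM column that per the file headers rests on an adjusted library size and was treated as a score. RPKM and the CPM score were not used, and the TPM values printed are the deposited ones. The submitters' processing notes name build mm10. Which aligner, counter and strand setting were used is not given in the sources used here.

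Testing relied on edgeR's quasi-likelihood F test (edgeR 4.0.16, R 4.3.3; robust, TMM scaling, expression filter with a minimum count of 10 and total of 15, Benjamini-Hochberg adjustment over all genes tested, threshold 0.05), on the 8 libraries of a day for the IL-13 comparisons and on all 16 for the others. The SE is the absolute log2 fold change over the square root of the F statistic. DESeq2 1.42.0 and the settings in the closing section were alternatives, and the edgeR steps were tested on simulated data. CPM uses TMM-scaled sizes of all 16 libraries, and log2 CPM a prior count of 2. The 0-count limit takes 3 counts, and limits and counting intervals cover counting error only. At depths of 15253031 to 18112087 counts, genes under about 1 CPM rest on few counts. No libraries of a group agreed within sampling noise (lowest chi-square per gene 3.72).

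The 6 chemokines and the gene lists were chosen with earlier results of these data known, and the list of nuclear-retained RNAs was assembled after falls of such RNAs had been seen. Named genes were all 6, the 3 genes with the smallest p among the called and the highest uncalled gene of each list and comparison (with values where the comparison is described), and 3 nearest profiles per chemokine.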

Additional observations from a re-analysis of the deposited data

Results flagged for a closer look

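None of the 6 chemokines stood out by these rules, but genes around them did. The IL-13 effect at day 6 minus that at day 0 passed edgeR's test for Ackr3 (log2 -2.53, adjusted p = 1.22e-06), Dcn (1.67, adjusted p = 0.00235), Gpc4 (0.456, adjusted p = 0.00151), Nfkb1 (-0.536, adjusted p = 7.11e-05), Adam17 (0.265, adjusted p = 0.0227) and Il1r1, the interleukin-1 receptor (-0.462, adjusted p = 0.0281). Il1r1 did not pass with library totals (-0.4, edgeR, adjusted p = 0.135) or on leaving out any of 12 single libraries of the 16.

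In 4 groups of 4, a single library lay apart from the other 3. IL-13 library 2 of day 6 had 7.63 CPM of Cxcl10, and IL-13 library 4 of day 6 had 60.6 CPM of Gpc4. Untreated library 4 of day 6 stood apart for both Adam10, at 95.1 CPM, and Dcn, at 90.4 CPM, and was the lowest of its group in either gene. Chance alone marks about 1 in 20 groups, and 101 groups of values were looked at.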

How the results depend on the processing

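The direction and the call of all 4 detected chemokines between the days held under every alternative run. The day 0 table had 5881 calls, 2912 higher and 2969 lower; scaling to library totals gave a median over all genes of -0.131 log2 (-0.0111 as reported) and 1682 higher and 4523 lower, with 53 and 1032 at day 6 (273 and 536 as reported) and 516 and 498 for the difference of effects (410 and 651 as reported). Calls at day 0 were 839 with the nuclear RNA covariate and 3485 without the untreated libraries with most nuclear RNA. Chemokines called there were 2 with library totals, with no filter, with DESeq2 and in the fit of all 16 libraries (chosen after seeing the data), and 1 to 2 when single libraries were left out. At day 6 the 809 calls were 0 with the covariate (edgeR, 1249 genes at an unadjusted p under 0.05), 2 without those untreated libraries, 1470 with DESeq2, 1405 in the fit of all 16 and 60 to 2328 leaving out single libraries, with 0 to 1 chemokines. The 1061 differences of effect were 2097 with the covariate and 545 without those libraries, and DESeq2 and single libraries left out gave 0 to 1 chemokines.

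Same-numbered libraries correlated at -0.0431 to 0.18 at day 0 and at 0.00611 to 0.215 at day 6, so the numbers were not taken to pair them, though 3 of 4 at either day correlated best with their own number. A replicate block gave 2812 calls and 1 chemokine at day 6 (Cxcl1, log2 -0.848, adjusted p = 0.00261 by edgeR) and 1608 differences of effect. It also brought day 6 calls of Cxcl9 (log2 0.584, edgeR, adjusted p = 0.0448) and Nfkbiz (log2 -1.05, edgeR, adjusted p = 0.000523); for Cxcl1 at day 0 with no filter it gave -2.32.

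Signs turned only for values without a call. At day 6 Cxcl12 had -0.0604 with library totals, -0.146 with the covariate, -0.0297 without those untreated libraries and -0.0225 to 0.091 leaving out single libraries. Cxcl16 had -0.132 and Nfkbiz 0.184 with the covariate, and Ackr3 0.18 with it, 0.154 without those libraries and -0.216 to 0.0351 leaving out single ones. Cxcl10 at day 0 had 0.411 with the covariate and 0.249 without those libraries, and the difference of effects of Cxcl16 ran from -0.161 to 0.11. The cause of these shifts was not tested.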
